A study of Mus musculus with 2 samples.

Results

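The collagen chain genes, taken as every row whose symbol is Col, a number, a and a number, made up 34 of the 15113 genes listed in 2 RNA-sequencing libraries of mouse lung epithelial cells. By the usual classification of collagens, 8 were fibrillar chains, 6 type IV chains, 5 type VI chains and 15 other chains. A gene listed in only 1 of the tables was taken as 0 in the other. Both libraries came from lungs of C57BL/6 mice aged 6 to 8 weeks, dissociated and sorted for cells without CD45, the common leukocyte surface protein, and with Sftpc, the surfactant protein C that marks alveolar type 2 (AT2) cells. The tumour-bearing group had received 1000000 luciferase-labelled LLC cells, a Lewis lung carcinoma line, under the skin of the back, as a model of spontaneous lung metastasis. The normal group was wild type and bore no tumour. With 1 library per group, differences carry no replicate check, and p-values are not given. The sources used here do not give the time between injection and sampling, the number of animals per library or how Sftpc was detected in the sort.

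Collagens are secreted or membrane proteins in which chains with a repeated glycine-X-Y sequence wind into a triple helix. Fibrillar collagens (types I, II, III, V and XI among them) form the fibrils of the interstitium and are made mainly by fibroblasts in the lung. Type IV collagen forms the network of basement membranes, on which alveolar epithelium and capillary endothelium rest, and type VI collagen forms beaded microfilaments beside basement membranes. The comparison addressed how lung epithelial cells differ between tumour-bearing and normal mice, in what the series calls the pre-metastatic niche.

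Expression is given as RPKM, the reads of a gene scaled to its length in kilobases and to the reads of the library, so levels of different chains can be compared per length. Whole reads behind the values were recovered from the tables, which corresponded to totals of 5387114 reads in the tumour-bearing library and 5335352 reads in the normal library. Ratios are tumour-bearing RPKM over normal RPKM, followed by the exact (Clopper-Pearson) 95% interval from the reads. Such intervals treat reads as independent and cover counting error only. They leave out PCR copying and differences between animals. A gene was called past 2-fold where the log2 ratio of RPKM + 1 was at least 1 in either direction. For genes at low levels this scale gives less than the true ratio.

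The sorted cells carried AT2 markers at high levels in both libraries, and markers of other cell types were present as well. Sftpc, the sort gene, was at 54968 RPKM in the tumour-bearing library and 94902 RPKM in the normal library. Ptprc, which encodes CD45, was at 0.0667 RPKM in the tumour-bearing library and 0.404 RPKM in the normal library. The summed RPKM of 16 fibroblast markers other than collagens was 637 in the tumour-bearing library and 189 in the normal library. The sum of 14 endothelial markers was 211 in the tumour-bearing library and 50.2 in the normal library. In such bulk RNA, a larger number of cells of a type and more RNA per cell cannot be told apart.

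Collagen chains as a group were higher in the tumour-bearing library, most of all the fibrillar chains. In the tumour-bearing library 13 of the 34 chains were higher by 2-fold or more, against 7.63% of all 15113 genes. None of the chains was at least 2-fold lower, against 5.31% of all genes, and 21 lay within 2-fold. With a mean of 1 RPKM or more required, 8.29% of genes were higher and 5.68% lower by the same rule. A chain can meet that requirement through the tumour-bearing library alone, so the 13 of 24 chains higher there are given as a count only. The median log2 ratio was 0.70 over the 34 chains and 0.06 over all genes. The count depended on the treatment of low values: on recovered reads with 0.5 added, 22 chains and 2772 of all genes passed. At a 4-fold threshold 8 chains and 204 of all genes passed. The log2 ratio was above 0 for 29 chains and below 0 for 5, namely Col4a5, Col4a6, Col7a1, Col13a1 and Col26a1.

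**Figure D1:**
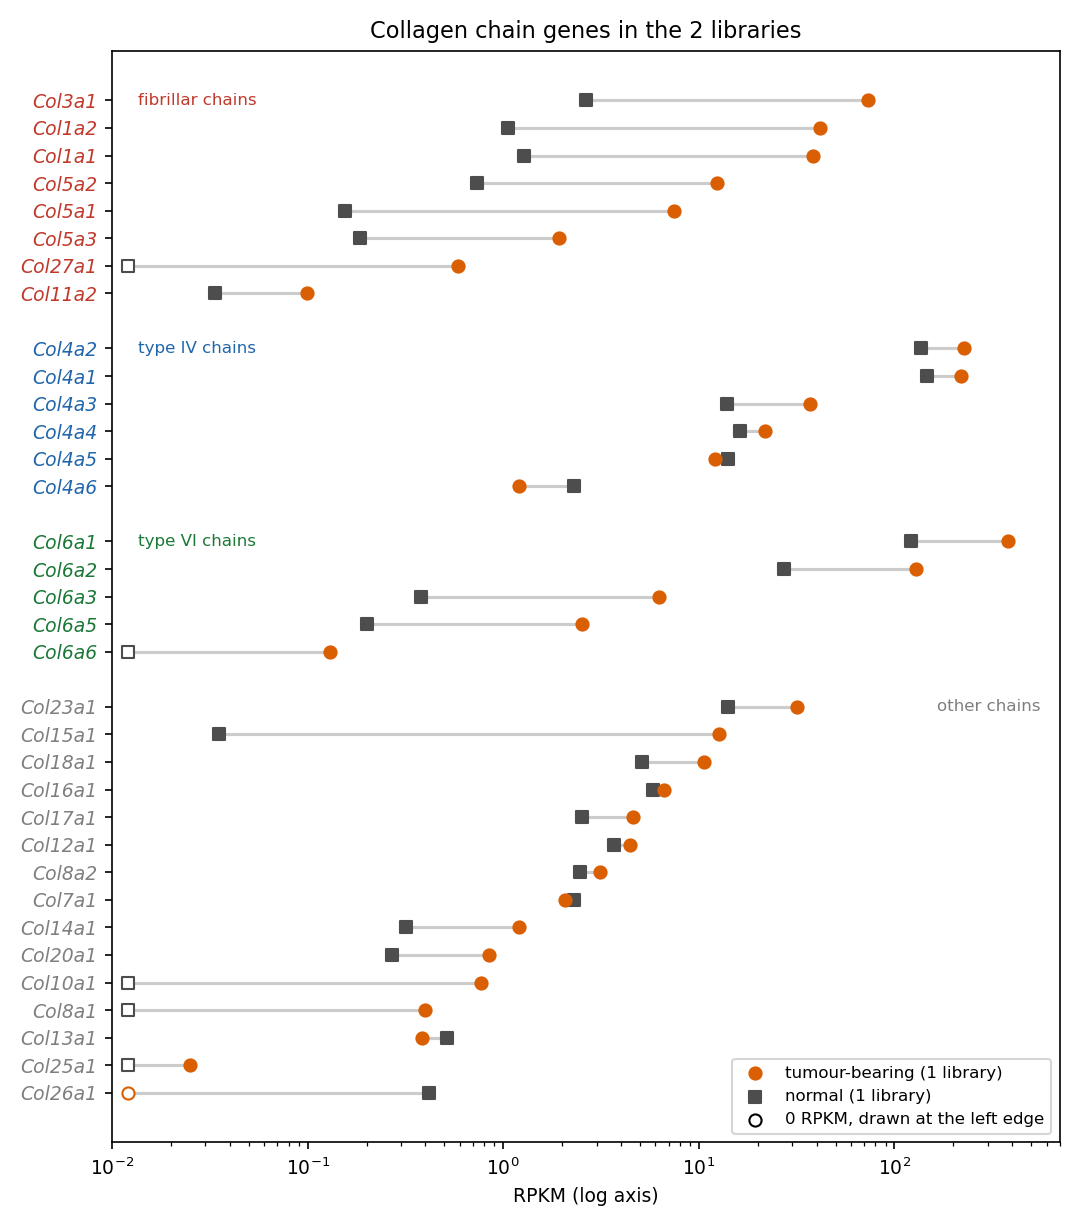
RPKM of each collagen chain gene (log axis) in the tumour-bearing library (circles) and the normal library (squares), 1 library each, grouped by class and ordered by the tumour-bearing level. Open symbols at the left edge stand for 0 RPKM. Col3a1 was at 73.5 RPKM in the tumour-bearing library and 2.66 RPKM in the normal library, while the Col4a1 symbols lie close together, at 219 RPKM in the tumour-bearing library and 147 RPKM in the normal library.

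The summed level of all chains was 1291 RPKM in the tumour-bearing library and 523 RPKM in the normal library, a ratio of 2.47. As a share of all RPKM this was 0.263% in the tumour-bearing library and 0.102% in the normal library. The 3 chains Col4a1, Col4a2 and Col6a1 supplied 63.9% of the chain sum in the tumour-bearing library and 77.4% in the normal library. Fibrillar chains took 13.7% of the chain sum in the tumour-bearing library and 1.17% in the normal library. Type IV chains took 40.2% of it in the tumour-bearing library and 63.2% in the normal library. Type VI chains took 40.02% of it in the tumour-bearing library and 28.4% in the normal library. The other chains took 6.16% of it in the tumour-bearing library and 7.18% in the normal library.

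**Figure D2:**
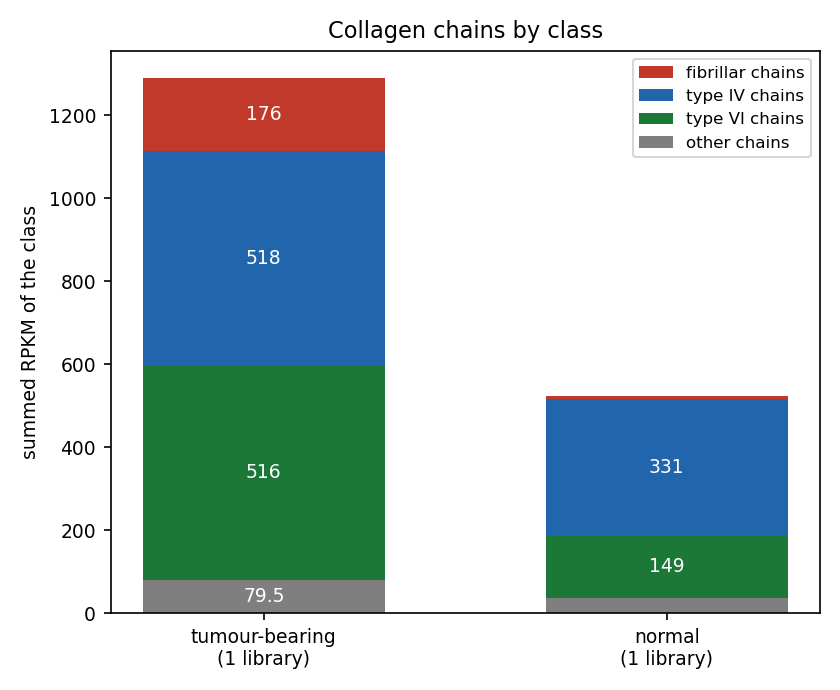
Summed RPKM of the 4 collagen classes, stacked, in the tumour-bearing library (left) and the normal library (right), 1 library each. The type IV part was 518 RPKM in the tumour-bearing library and 331 RPKM in the normal library, and the fibrillar part was 176 RPKM in the tumour-bearing library and 6.10 RPKM in the normal library.

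The order of the chains also differed between the libraries. In the tumour-bearing library the highest chain was Col6a1 at 379 RPKM, followed by Col4a2 at 228, Col4a1 at 219, Col6a2 at 129 and Col3a1 at 73.5 RPKM. In the normal library the highest was Col4a1 at 147 RPKM, followed by Col4a2 at 137, Col6a1 at 121, Col6a2 at 27.3 and Col4a4 at 16.2 RPKM. Of the chains, 28 were listed in both tables, 5 in the tumour-bearing table alone (Col27a1, Col6a6, Col8a1, Col10a1 and Col25a1) and 1 in the normal table alone (Col26a1). Another 10 chain genes of the classification had a row in neither table: Col2a1, Col11a1, Col24a1, Col6a4, Col9a1, Col9a2, Col9a3, Col19a1, Col22a1 and Col28a1. Several of them, such as Col2a1 and the type IX chains, are best known from cartilage.

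Chains past 2-fold were found at every level in the normal library. Among the 10 chains at 5 RPKM or more in the normal library, 4 were at least 2-fold higher in the tumour-bearing library (Col4a3, Col6a1, Col6a2 and Col23a1), against 4.01% of all genes at that level. Among the 8 chains at 1 to 5 RPKM in the normal library, 3 were (Col1a1, Col1a2 and Col3a1), against 8.93% of genes. Among the 16 chains under 1 RPKM in the normal library, 6 were, against 14.1% of genes. Of the chains in the upper 2 levels none was at least 2-fold lower, against 5.33% of genes at 5 RPKM or more and 10.7% at 1 to 5 RPKM. Under 1 RPKM in the normal library no gene can be 2-fold lower on this scale.

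**Figure D3:**
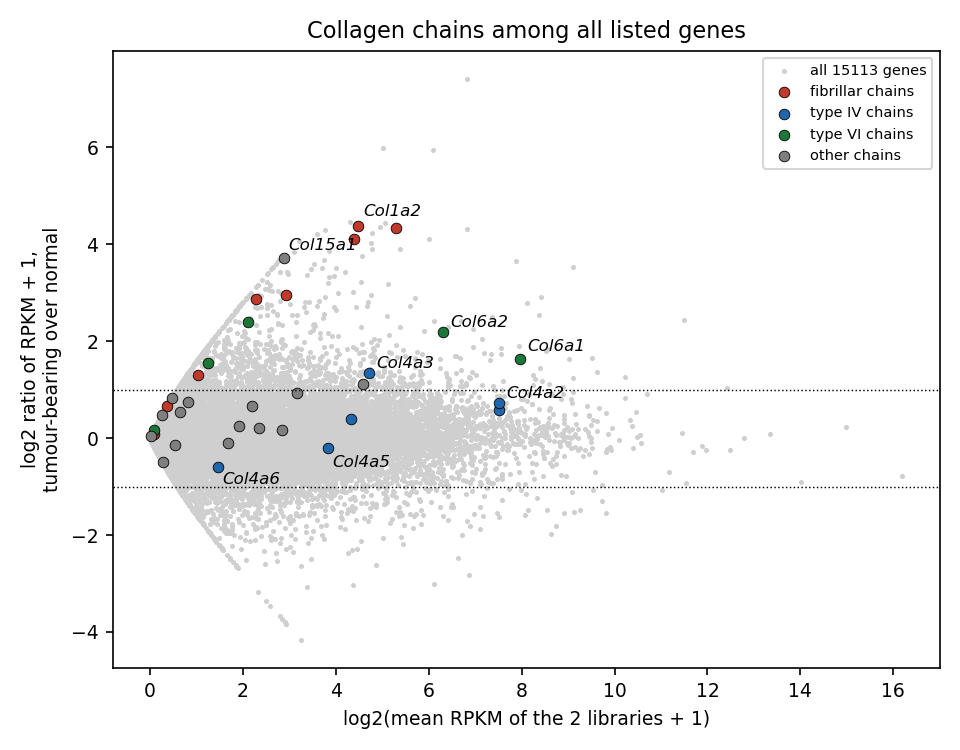
Log2 ratio of RPKM + 1, tumour-bearing over normal, against the log2 mean RPKM + 1 of both libraries for all 15113 genes (grey points) and the 34 collagen chains (coloured by class). Dotted lines mark 2-fold in each direction. The 13 chains above the upper line run from low levels to Col6a1, and no chain lies below the lower line.

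Upstream sequence is shown for Col3a1, the highest fibrillar chain, as the one chain with a ratio above 15 and a window in RefSeq's promoter table whose 250 bases before the start lie outside the gene and hold no exon of GENCODE M21. The sequence is from RefSeq (GRCm38.p6), chr1:45311288-45311537 (+), 5′ to 3′ on the strand of the gene. Capitals mark matches, on either strand, to the TATA box TATAAA, the CCAAT box CCAAT or the GC box GGGCGG.
Col3a1: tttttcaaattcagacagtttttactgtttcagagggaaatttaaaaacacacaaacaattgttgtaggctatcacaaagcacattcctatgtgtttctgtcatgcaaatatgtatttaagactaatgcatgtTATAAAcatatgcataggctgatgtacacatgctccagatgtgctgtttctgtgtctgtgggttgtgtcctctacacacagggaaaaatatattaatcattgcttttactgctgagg
The Col3a1 stretch is rich in A and T, with 35.2% G and C, and holds 1 TATAAA match that begins 117 bases before the start. Windows of the same length, each before a start that RefSeq's promoter table uses, were found for 28 of the 34 chain genes, 30 windows in all. For some genes that start lies inside the bounds of the gene, so part of the window can be transcribed. Of the 30 windows, 19 (63.3%) held the GC box, against 32.7% of 32851 windows of all genes. The CCAAT box was in 33.3% of chain windows and 33.8% of all windows, and TATAAA in 16.7% of chain windows and 12.4% of all windows. The median G and C content was 60% in chain windows and 52.4% in all windows. Matches to different motifs may overlap, and a match describes the letters only.

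Fibrillar chains showed the widest difference. The log2 ratio of all 8 was above 0, and the median was 2.91. Of the 8, 6 were at least 2-fold higher, against 7.63% of all genes. Their summed RPKM was 176 in the tumour-bearing library and 6.10 in the normal library. The median was 1.44 with 5 RPKM in place of 1 RPKM added, and 4.84 on recovered reads with 0.5 added.

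Type I collagen, the main protein of tissue fibrils, is built from Col1a1 and Col1a2 chains. Col1a1 (GeneID 12842, GRCm38 chromosome 11, 94936224 to 94953042) was at 38.5 RPKM in the tumour-bearing library and 1.27 RPKM in the normal library, from 976 tumour-bearing and 32 normal reads. This was a ratio of 30.2 (21.3 to 44.4). Col1a2 (GeneID 12843, chromosome 6, 4505618 to 4541543) was at 41.8 RPKM in the tumour-bearing library and 1.06 RPKM in the normal library, from 1157 tumour-bearing and 29 normal reads, a ratio of 39.5 (27.4 to 59.3). The RNA levels of the 2 partner chains thus stood near parity in both libraries, although the type I trimer holds more of the Col1a1 chain than of the Col1a2 chain. The level of Col1a1 over that of Col1a2 was 0.921 (0.845 to 1.00) in the tumour-bearing library and 1.21 (0.706 to 2.06) in the normal library, and the intervals overlap.

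Col3a1 (GeneID 12825, chromosome 1, 45311538 to 45349706), the single chain of type III collagen found with type I in extensible tissue, was the highest fibrillar chain. It was at 73.5 RPKM in the tumour-bearing library and 2.66 RPKM in the normal library, from 2203 tumour-bearing and 79 normal reads, a ratio of 27.6 (22.1 to 35.02). Its level over that of Col1a1 was 1.91 (1.77 to 2.06) in the tumour-bearing library and 2.09 (1.37 to 3.26) in the normal library. These chains of types I and III therefore kept similar proportions to one another while their levels differed by over 20-fold between the libraries.

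Type V collagen is a minor fibrillar collagen that starts and limits the width of type I fibrils. Col5a1 (GeneID 12831) was at 7.50 RPKM in the tumour-bearing library and 0.156 RPKM in the normal library, a ratio of 48.1 (23.1 to 121) that rests on 340 tumour-bearing and 7 normal reads. Col5a2 (GeneID 12832) was at 12.4 RPKM in the tumour-bearing library and 0.737 RPKM in the normal library, a ratio of 16.8 (11.3 to 26.1). Their partner ratio moved further than that of type I: Col5a1 over Col5a2 was 0.604 (0.523 to 0.698) in the tumour-bearing library and 0.212 (0.0775 to 0.5004) in the normal library. Col5a3 (GeneID 53867) was lower in abundance, at 1.92 RPKM in the tumour-bearing library and 0.185 RPKM in the normal library, a ratio of 10.4 (4.52 to 29.4). Col3a1 and Col5a2 are neighbours on chromosome 1, converging across 24624 bases.

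The 2 remaining fibrillar chains were near the limit of detection. Col27a1, a chain known mainly from cartilage, had 24 reads in the tumour-bearing library and 0 in the normal library. The interval of its ratio ran from 5.96 upward. With 3 reads set in place of 0 as a floor the ratio was 7.92, and bounds at 0 reads below use that floor. Col11a2, a type XI chain of cartilage fibrils, had 3 reads in the tumour-bearing library and 1 read in the normal library, a ratio of 2.97 whose interval of 0.239 to 156 allows a difference in either direction.

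**Figure D4:**
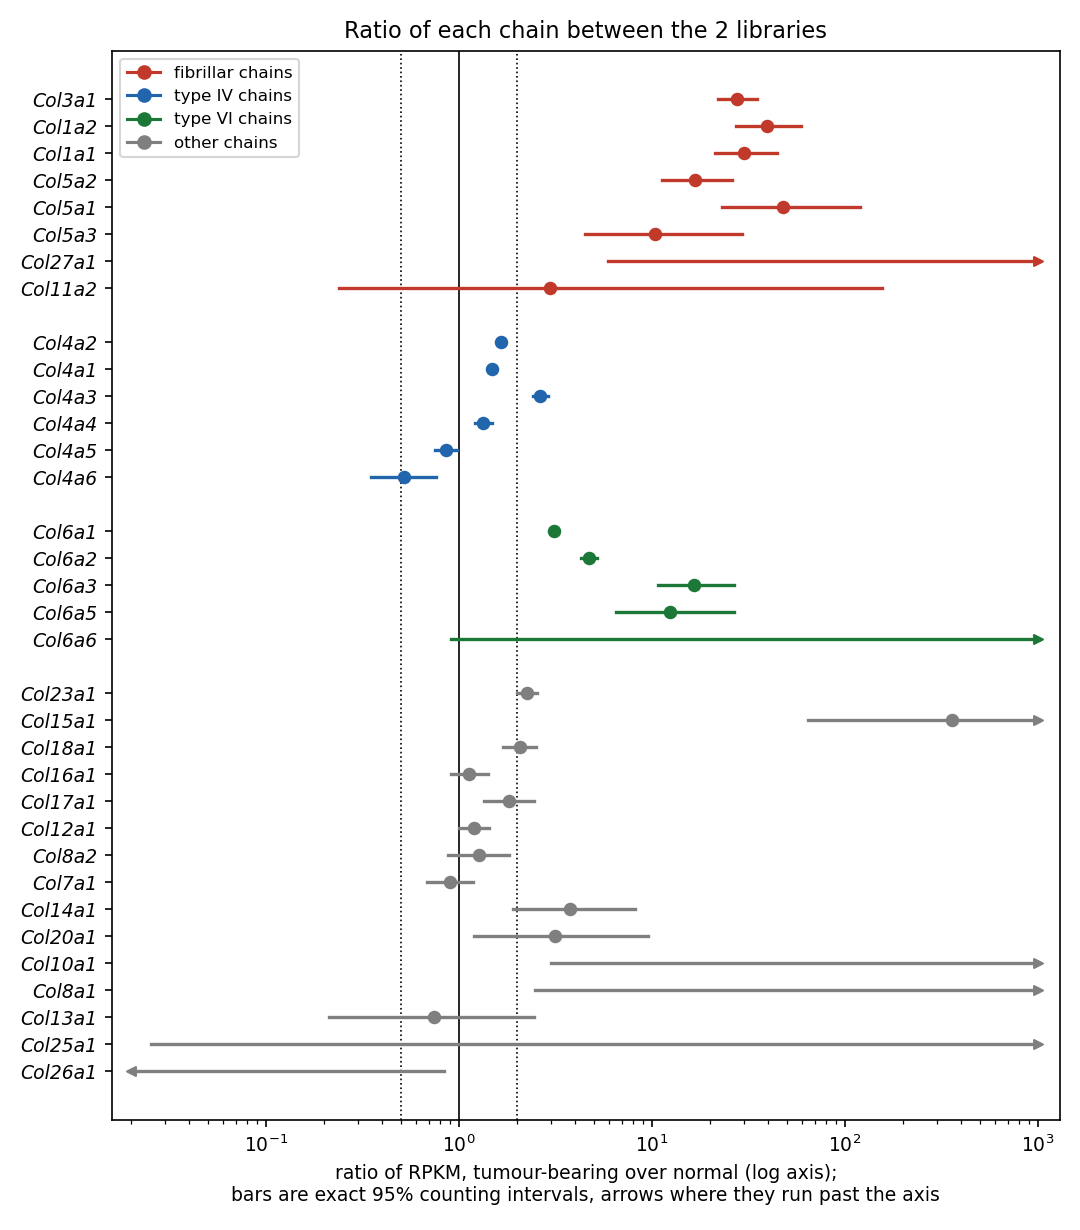
Ratio of RPKM, tumour-bearing over normal (log axis), of each collagen chain, with its exact 95% counting interval as a bar. The solid line marks equal levels, dotted lines mark 2-fold, and chains at 0 reads in 1 library have a bar without a point. Most fibrillar bars lie to the right of those of the type IV chains, whose ratios run from 0.519 for Col4a6 to 2.65 for Col4a3.

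By the counting interval alone, 24 of the 34 chains had a ratio wholly above 1, against 29.6% of the 15100 genes with recovered reads. Only Col4a5, Col4a6 and Col26a1 had one wholly below 1, against 23.9% of genes, and for 7 chains the interval held 1. In 16 chains the whole interval lay above 2, against 5.98% of genes, and in none wholly below 0.5, against 3.64% of genes.

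Type VI chains were also higher, with unequal ratios. The log2 ratio of all 5 was above 0 and 4 were at least 2-fold higher, against 7.63% of all genes. The median was 1.64, against 3.45 on recovered reads with 0.5 added and 1.07 with 5 RPKM added. Col6a1 (GeneID 12833, chromosome 10, 76708792 to 76726044), a core chain of the type VI heterotrimer, was at 379 RPKM in the tumour-bearing library and 121 RPKM in the normal library, from 8137 tumour-bearing and 2573 normal reads. Its ratio was 3.13 (2.996 to 3.28). Col6a2 (GeneID 12834), its partner on the same chromosome, was at 129 RPKM in the tumour-bearing library and 27.3 RPKM in the normal library, a ratio of 4.72 (4.30 to 5.18). Both chains were well expressed in normal cells too, unlike the chains of types I, III and V.

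The third core chain stood far below its partners. Col6a3 (GeneID 12835, chromosome 1, 90766860 to 90844001) was at 6.26 RPKM in the tumour-bearing library and 0.380 RPKM in the normal library, from 366 tumour-bearing and 22 normal reads, a ratio of 16.5 (10.7 to 26.6). Its level over that of Col6a1 was 0.0165 (0.0149 to 0.0184) in the tumour-bearing library and 0.00315 (0.00197 to 0.00477) in the normal library. For Col6a2 over Col6a1 the values were 0.341 (0.326 to 0.356) in the tumour-bearing library and 0.226 (0.206 to 0.248) in the normal library. In neither library were the RNA levels of the 3 chains near the equal proportions in which the proteins enter the trimer. The intervals of each partner over Col6a1 did not overlap between the libraries. Col6a5 (GeneID 665033), a later-described type VI chain, was at 2.52 RPKM in the tumour-bearing library and 0.202 RPKM in the normal library, a ratio of 12.5 (6.57 to 26.7). Col6a6 had 5 reads in the tumour-bearing library and 0 in the normal library. The interval of its ratio ran from 0.908 upward and so held 1.

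Type IV chains had the lowest ratio of sums of the 4 classes, 1.57, and 4 of the 6 chains had a log2 ratio above 0 and 2 below 0. Their median was 0.49, and 1 of the 6 was at least 2-fold higher, against 7.63% of all genes. Col4a1 (GeneID 12826, chromosome 8, 11198423 to 11312889) and Col4a2 (GeneID 12827, chromosome 8, 11312805 to 11449287) form the network found in nearly all basement membranes. Col4a1 was at 219 RPKM in the tumour-bearing library and 147 RPKM in the normal library, a ratio of 1.49 (1.44 to 1.54). Col4a2 was at 228 RPKM in the tumour-bearing library and 137 RPKM in the normal library, a ratio of 1.66 (1.601 to 1.72). The genes lie head to head and their annotations overlap by 85 bases at the starts. Col4a1 over Col4a2 was 0.960 (0.930 to 0.990) in the tumour-bearing library and 1.07 (1.03 to 1.11) in the normal library, close to 1 in both.

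The chains Col4a3, Col4a4 and Col4a5 form a second network, known from the glomerular and alveolar basement membranes. Col4a3 (GeneID 12828, chromosome 1, 82586921 to 82722059) was at 36.8 RPKM in the tumour-bearing library and 13.9 RPKM in the normal library, from 1707 tumour-bearing and 638 normal reads, a ratio of 2.65 (2.42 to 2.91). Col4a4 (GeneID 12829), which starts head to head with it, was at 21.7 RPKM in the tumour-bearing library and 16.2 RPKM in the normal library, a ratio of 1.34 (1.21 to 1.48). Col4a5 (GeneID 12830), on the X chromosome, was at 12.2 RPKM in the tumour-bearing library and 14.2 RPKM in the normal library, 1.16-fold lower (1.02 to 1.33). The RNA proportions of these chains therefore differed between the libraries, and protein was not measured. Col4a3 over Col4a4 was 1.69 (1.56 to 1.84) in the tumour-bearing library and 0.856 (0.767 to 0.955) in the normal library. Col4a3 over Col4a5 was 3.03 (2.72 to 3.37) in the tumour-bearing library and 0.982 (0.871 to 1.11) in the normal library. An annotated transcript on the opposite strand, C430014B12Rik, shares 5.65% of the Col4a3 exon bases. It has no row in either table, and without a stated strand setting reads from the shared stretch cannot be assigned to it or to Col4a3.

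Col4a6 (GeneID 94216), which pairs with Col4a5 in the basement membranes of smooth muscle and some epithelia, was the lowest type IV chain. It was at 1.201 RPKM in the tumour-bearing library and 2.31 RPKM in the normal library, from 43 tumour-bearing and 82 normal reads, 1.93-fold lower (1.32 to 2.85). Col4a6 and Col4a5 lie head to head on the X chromosome, 1274 bases apart, and both were lower. Alveolar type 1 (AT1) cells are thin cells that share the alveolar basement membrane with capillaries. Of 12 AT1 markers, 7 were at least 2-fold higher, against 7.63% of all genes, and 0 lower, against 5.31%. Their summed RPKM was 3062 in the tumour-bearing library and 1877 in the normal library. The part of AT1 cells in the type IV levels was not tested.

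Among the other 15 chains, 2 were at least 2-fold higher, against 7.63% of all genes, and 0 lower, against 5.31%. The remaining 13 lay within 2-fold, and the median log2 ratio was 0.49. The multiplexins, proteoglycan collagens of basement membrane zones, were the group with the highest ratio of sums, 4.51, from 23.4 RPKM in the tumour-bearing library and 5.18 RPKM in the normal library. Col15a1 (GeneID 12819, chromosome 4, 47207655 to 47313167) was at 12.7 RPKM in the tumour-bearing library and 0.0351 RPKM in the normal library, from 365 tumour-bearing reads and 1 normal read. Its ratio of 361 had an interval of 64.5 to 14317, the widest shift of any chain that was read in both libraries. Col18a1 (GeneID 12822), the source of the fragment endostatin, was at 10.7 RPKM in the tumour-bearing library and 5.15 RPKM in the normal library, a ratio of 2.07 (1.70 to 2.52), with a log2 ratio of 0.92 on the RPKM + 1 scale, under the 2-fold mark.

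Transmembrane collagens span the plasma membrane and can be shed from it. Col23a1 (GeneID 237759, chromosome 11, 51289679 to 51583925) was the most abundant of the 15, at 31.7 RPKM in the tumour-bearing library and 14.0 RPKM in the normal library, from 968 tumour-bearing and 424 normal reads, a ratio of 2.26 (2.02 to 2.54). Col17a1, a hemidesmosome protein of basal epithelium, was at 4.58 RPKM in the tumour-bearing library and 2.52 RPKM in the normal library, a ratio of 1.82 (1.36 to 2.45). Col13a1 had 6 reads in the tumour-bearing library and 8 in the normal library, and Col25a1 had 1 in the tumour-bearing library and 0 in the normal library, too few to show a difference at this depth.

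Fibril-associated collagens, which decorate fibrils of other types, lay within 2-fold on the RPKM + 1 scale in all 4 members listed. Col12a1 was at 4.43 RPKM in the tumour-bearing library and 3.70 RPKM in the normal library, a ratio of 1.197 (1.00 to 1.43). Col16a1 was at 6.61 RPKM in the tumour-bearing library and 5.81 RPKM in the normal library, a ratio of 1.14 (0.916 to 1.41). Col14a1 and Col20a1 were low, with 42 and 19 reads in the tumour-bearing library, against 11 and 6 reads in the normal library, and ratios of 3.78 (1.91 to 8.14) and 3.14 (1.204 to 9.59). The more abundant members of this group thus had the smaller ratios.

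The short-chain and remaining collagens were low in both libraries. Col8a2, a type VIII chain best known from the cornea, was at 3.13 RPKM in the tumour-bearing library and 2.47 RPKM in the normal library, a ratio of 1.27 (0.885 to 1.83). Its partner Col8a1 had 11 reads in the tumour-bearing library and 0 in the normal library, with an interval of the ratio from 2.49 upward. Col10a1, the marker of hypertrophic cartilage, had 13 reads in the tumour-bearing library and 0 in the normal library. The interval of its ratio ran from 3.02 upward. Col7a1, which forms the anchoring fibrils beneath stratified epithelia, was at 2.07 RPKM in the tumour-bearing library and 2.30 RPKM in the normal library, a ratio of 0.903 (0.684 to 1.19). Col26a1 had 0 reads in the tumour-bearing library and 6 in the normal library, with an interval of the ratio from 0 to 0.841.

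Genes that build, fix and remove collagen were followed in 6 lists arranged by role. Enzymes that hydroxylate and glycosylate the chains inside the cell were near the values of all genes: 1 of 15 was at least 2-fold higher, against 7.63% of all genes, and 0 lower, against 5.31%. Their median log2 ratio was 0.07, against 0.06 over all genes. P4ha2, a catalytic subunit of prolyl 4-hydroxylase, was at 46.2 RPKM in the tumour-bearing library and 17.3 RPKM in the normal library, a ratio of 2.67 (2.28 to 3.14). The alternative subunit P4ha1 was 1.58-fold lower (1.41 to 1.78), at 21.002 RPKM in the tumour-bearing library and 33.3 RPKM in the normal library. P4hb, the shared beta subunit, was at 476 RPKM in the tumour-bearing library and 454 RPKM in the normal library.

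Folding and secretion genes had a median of 0.20. Of the 15, 3 were at least 2-fold higher, against 7.63% of all genes, and 1 lower, against 5.31%. The prolyl isomerase genes Fkbp10 and Fkbp7 had ratios of 4.42 (2.96 to 6.81) and 5.50 (2.68 to 12.7), and Mia2, a cargo receptor gene of endoplasmic reticulum exit sites, one of 2.76 (1.77 to 4.41). Creb3l1, a transcription factor gene of the secretory pathway known to act on collagen genes in bone, was at 14.8 RPKM in the tumour-bearing library and 41.2 RPKM in the normal library, 2.79-fold lower (2.35 to 3.32). Serpinh1, the collagen-specific chaperone, named here after its values were seen, was at 34.1 RPKM in the tumour-bearing library and 39.98 RPKM in the normal library.

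Genes that act outside the cell were counted the same way, beside the same 7.63% higher and 5.31% lower over all genes. Of 18 genes read in the list of propeptide removal and fibril assembly, 8 were at least 2-fold higher and 1 lower, with a median of 0.81. Bgn, the fibril-binding proteoglycan biglycan, was at 121 RPKM in the tumour-bearing library and 6.12 RPKM in the normal library, a ratio of 19.8 (15.8 to 25.2), and Dcn, decorin, had a ratio of 4.45 (3.58 to 5.58). Pcolce, an enhancer of procollagen cleavage, had a ratio of 2.21 (1.69 to 2.90). Of the 18, 5 had a log2 ratio below 0. Thbs1, thrombospondin, was the 1 gene at least 2-fold lower by the rule, at 47.9 RPKM in the tumour-bearing library and 129 RPKM in the normal library, 2.69-fold lower (2.54 to 2.86).

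Of 10 genes for crosslinking and basement membrane assembly, 5 were at least 2-fold higher and 0 lower, with a median of 1.12. The shares over all genes were 7.63% higher and 5.31% lower. Lox and Loxl1, oxidases that crosslink collagen and elastin, had ratios of 21.5 (13.0 to 38.001) and 16.9 (8.99 to 36.0). Nid1, the basement membrane linker nidogen, was at 11.8 RPKM in the tumour-bearing library and 0.713 RPKM in the normal library, a ratio of 16.6 (10.9 to 26.5). Pxdn, which crosslinks type IV collagen, had a ratio of 3.21 (2.45 to 4.25). Of 9 collagen-degrading enzyme genes read, 3 were at least 2-fold higher and 0 lower, with a median of 0.88. They were Mmp2 with a ratio of 7.08 (4.42 to 11.9), Ctsk with 3.36 (2.09 to 5.605), and Mmp3. Mmp3 had 52 reads in the tumour-bearing library and 0 in the normal library, with an interval of the ratio from 13.5 upward.

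Of 12 collagen receptor genes read, 0 were at least 2-fold higher and 1 lower, close to the 7.63% and 5.31% of all genes. The median was 0.10, against 0.06 over all genes. Itgb1, the shared beta subunit of the collagen-binding integrins, was at 133 RPKM in both libraries, with a ratio of 1.00 (0.953 to 1.06). Ddr1, the discoidin receptor of epithelium, had a ratio of 1.39 (1.21 to 1.59). Antxr1, a receptor that binds type VI collagen fragments, was at 29.8 RPKM in the tumour-bearing library and 65.9 RPKM in the normal library, 2.21-fold lower (2.04 to 2.40).

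Markers of stromal cells differed in the same direction as the chains. Of 16 fibroblast markers other than collagens, 10 were at least 2-fold higher, against 7.63% of all genes, and 0 lower, against 5.31%. Their median log2 ratio was 1.42. Lum and Thy1 were at 0 in the normal library, with 20 and 34 reads in the tumour-bearing library. Tcf21 and Pi16 were also at 0 in the normal library. They had 2 reads each in the tumour-bearing library, too few to show a difference. Pdgfra, a receptor gene of fibroblasts, was at 9.35 RPKM in the tumour-bearing library and 0.228 RPKM in the normal library, a ratio of 41.0 (20.6 to 95.7). Fn1, fibronectin, had a ratio of 20.8 (17.2 to 25.5) and Eln, elastin, one of 13.8 (9.86 to 19.99). Gsn, gelsolin, the most abundant of the list, was at 231 RPKM in the tumour-bearing library and 139 RPKM in the normal library, a ratio of 1.65 (1.56 to 1.75), and 1 of the 16 markers had a log2 ratio below 0. Dcn, Lum, Fbln1 and Dpt are also in the list of propeptide removal and fibril assembly. These genes are among those at least 2-fold higher in both lists, so the counts are not separate. The part of fibroblasts in the collagen values was not tested.

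Other marker lists are given for the same reason, beside the 7.63% of all genes higher and 5.31% lower by the 2-fold rule. Of 14 endothelial markers, 12 were at least 2-fold higher and 0 lower, with none at 0 in either library. The other 2, Kdr and Tek, had a log2 ratio below 0. Of 9 smooth muscle and pericyte markers read, 2 were at least 2-fold higher and 0 lower, with summed RPKM of 15.5 in the tumour-bearing library and 3.82 in the normal library. Acta2, Myh11, Cnn1, Cspg4 and Rgs5 were at 0 in the normal library and under 0.5 RPKM in the tumour-bearing library. The mesothelial sum over 3 genes read was 17.1 RPKM in the tumour-bearing library and 1.73 RPKM in the normal library, most of it Msln. Of 5 macrophage markers read, 3 were at least 2-fold higher and 0 lower, with a sum of 50.5 RPKM in the tumour-bearing library and 12.7 RPKM in the normal library. Cd68 supplied 31.5 RPKM of the tumour-bearing sum and 7.81 RPKM of the normal sum. The macrophage markers Adgre1, Marco and Mrc1 had no row for either library. The leukocyte sum was 1.46 RPKM in the tumour-bearing library and 3.81 RPKM in the normal library. Of 10 AT2 markers, 1 was at least 2-fold higher and 1 lower, with a sum of 97769 RPKM in the tumour-bearing library and 144629 RPKM in the normal library. Sftpc supplied 54968 RPKM of the tumour-bearing sum and 94902 RPKM of the normal sum, so the sums mostly follow that gene. The log2 ratio was above 0 for 4 of the 10 and below 0 for 6. Of 5 club cell markers 1 was higher and 1 lower, and of 5 basal cell markers 1 was higher and 0 lower, by the same rule. The part of these cell types in the collagen values was not tested.

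**Figure D5:**
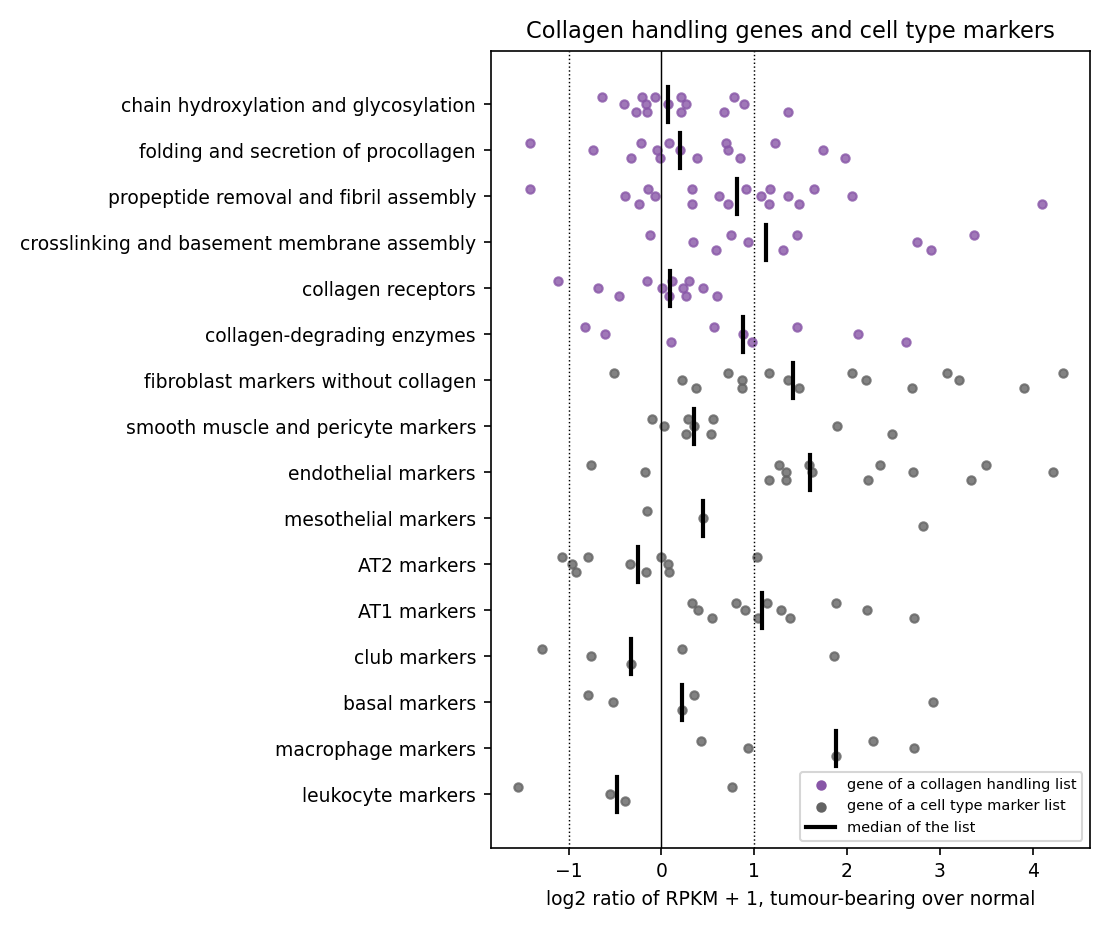
Log2 ratio of RPKM + 1, tumour-bearing over normal, of each gene (points) in the 6 collagen handling lists and 10 cell type marker lists, with the list median as a black bar. Dotted lines mark 2-fold. Medians were 1.12 for crosslinking and basement membrane assembly, 1.42 for fibroblast markers and 0.10 for collagen receptors.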

How the data were processed

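RNA of 2 libraries, 1 per group, was enriched by poly(A) on beads, fragmented, copied from random primers and enriched by PCR, per the labels' protocols. Trimmomatic and the mm10 build were used, per the submitters' processing notes, without versions. The sources used here do not give the aligner, counting tool, annotation or strand setting. The authors deposited 1 table of RPKM per library, per the file headers. RPKM divides by the library total, so a few abundant genes lower the rest.

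Values were compared as deposited. No filter on low values was used, since a gene under 1 RPKM in both libraries cannot pass 2-fold on log2(RPKM + 1). Library totals were those at which the last 40 rows, taken as 1 read each, had whole gene lengths. Whole reads were then recovered for 99.9% of genes from whole lengths and the descending order of reads (3 neighbouring rows out of order per table). They are estimates of this work. Sftpc, the first row of both tables, had no settled read number. The recovery was tested on simulated data. The 2-fold rule was applied there to the simulated reads themselves, not to recovered ones. Changes were planted only in genes with many reads, so that test does not cover changes in chains with few reads. Current symbols and coordinates came from RefSeq (GRCm38.p6) by GeneID for 15080 genes.

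The chains and lists were chosen with earlier results of these data known. All chains could be named, and of each list up to 5 members furthest from 0 in log2 ratio among those reaching 5 RPKM in a library, plus the most abundant. Some further members are named as absent, at 0, below 0 in log2 ratio or shared between lists. Alternatives were pseudocounts, filters, scalings, centring and fold thresholds. Recovered reads, the counting interval and bounds at 0 reads were added after seeing the data. Python 3.11.15, NumPy 2.4.6, SciPy 1.17.1 and pandas 2.3.3 were used.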

Additional observations from a re-analysis of the deposited data

How the results depend on the processing

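No chain called past 2-fold changed sign under any alternative run. Among the rest only Col25a1, with 1 read, did. It was at -0.02 when centred on the median of genes with a mean of 1 RPKM or more. The count of chains at least 2-fold higher, 13, was the same under all 3 scalings and centring. It was 20 with 0.1 RPKM added, 10 with 5 RPKM added and 22 on recovered reads. It was 9 with a mean of 5 RPKM or more required, and 8 at a 4-fold threshold. The count of chains at least 2-fold lower, 0, was 1 in each of 3 settings: 0.1 RPKM added, recovered reads and a 1.5-fold threshold. The fibrillar median of 2.91 was 3.53 and 4.23 with filters at a mean of 1 and 5 RPKM, 4.32 and 1.44 with 0.1 and 5 RPKM added, 4.43 on the ratio of reads with chains at 0 reads at their bound, and 4.84 on recovered reads with 0.5 added. The type VI median of 1.64 was 1.92 with either filter, 2.23 and 1.07 with 0.1 and 5 RPKM added, 2.24 at the bounds and 3.45 on recovered reads. It was 1.57 with upper-quartile scaling and 1.57 with Sftpc left out of the sum. The median of the other chains, 0.49, was 1.02 with the filter at 5 RPKM, 0.84 and 0.12 with 0.1 and 5 RPKM added, 0.86 at the bounds and 1.05 on recovered reads. A chain can pass a filter through the tumour-bearing library alone, so the filtered values are given without a reading. In the other settings the medians stayed above 0, and the type IV median stayed within its counting range. The cause of these changes was not tested. Over all genes, 1153 were at least 2-fold higher and 802 lower, against 2515 higher and 2026 lower with 0.1 RPKM added, 370 and 190 with 5 RPKM added, and 2772 and 2201 on recovered reads. No paired analysis was possible because each group has 1 library. Depth limits the chains with few reads, and 9 of the 34 reached 1 RPKM in neither library.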
